A study of Mus musculus with 3 samples.

Results

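Meg3, Snhg11, Miat, Lockd, Pantr1, Rmst, Malat1 and Neat1 are long noncoding RNAs, most of them studied in the brain or in neural progenitors. They were taken by symbol from the gene rows of the 3 matrices, where each symbol matched 1 row, giving 8 of 27998 genes. Their raw UMIs (unique molecular identifiers, 1 per captured transcript) were followed across the cell classes of the adult mouse subventricular zone, the neurogenic layer of the lateral ventricle wall.

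Long noncoding RNAs are transcribed and often spliced and polyadenylated like messenger RNAs, but most have no known protein product. Malat1 is a nuclear RNA held in speckles, where splicing factors gather, and Neat1 is the scaffold of the nearby bodies called paraspeckles. Meg3 is an imprinted RNA expressed from the maternal chromosome and abundant in neurons. Rmst is known to bind SOX2 in human neural progenitors. In the subventricular zone, astrocyte-like stem cells give rise to transit-amplifying progenitors and these to neuroblasts, while ependymal cells form the ciliated lining of the ventricle.

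Cells came from the dissected lateral ventricle wall of adult mice (n = 5), dissociated with papain and sorted by fluorescence before 10x Chromium 3' v2 capture, which reads polyadenylated RNA. All libraries came from mice that joined aSMACreERt2::Rosa26-tdTomato with B6;129S-Sox2tm2Hoch/J, of C57/Bl6(3/4) and 129S1SvlmJ(1/4) descent, so every cell carried the Cre, the tdTomato reporter and a GFP reporter of Sox2, and all sorted cells were GFP-positive. One library held tdTomato-positive cells (1200 sorted). The tdTomato-negative libraries 1 and 2 held GFP-positive cells without tdTomato (1200 and 6000 sorted). The smooth muscle actin promoter drives the Cre, which is an inducible form (CreERt2). The tdTomato label therefore marks cells in which that promoter was active when the Cre was induced, and their descendants. Whether each library had its own mice is not stated in the labels. For tdTomato-positive against tdTomato-negative cells, p-values therefore measure the spread between libraries, which may be technical. Comparisons of cell classes had library as a block. Their p-values measure the spread left after differences between libraries were fitted, which may also be technical. In both kinds of comparison the spread was estimated with information shared over all tested genes. A small p-value or standard error therefore does not show that the RNA itself varied little between libraries.

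The tdTomato-positive library yielded 252 cells after filtering with a median of 2535 UMIs, and tdTomato-negative libraries 1 and 2 yielded 256 and 1121 cells with medians of 2639.5 and 2401 UMIs. The tdTomato-positive library stood apart in RNA quality: its median share of mitochondrial UMIs was 8.27%, against 3.22% and 3.38% in tdTomato-negative libraries 1 and 2, and 62 of its barcodes were left out, against 3 and 6. It shared 0 and 1 barcodes with tdTomato-negative libraries 1 and 2, which shared 2 with each other. The 8 RNAs together took 4.38% of the UMIs of the tdTomato-positive library, against 5.75% and 7.97% in tdTomato-negative libraries 1 and 2.

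Classes were built without the 8 RNAs. The tdTomato-positive library held 177 ependymal-like cells, against 12 and 46 in tdTomato-negative libraries 1 and 2, and nearly all cells of the neuronal lineage came from the tdTomato-negative libraries. There were 147 transit-amplifying-like cells, 321 neuroblast-like cells, 278 astrocyte-like cells (which can include quiescent stem cells), 52 oligodendrocyte precursor-like and 54 oligodendrocyte-like cells, with 20 endothelial-like and 14 microglia-like cells and a mural-like group of 8. Levels are ordered below over libraries with at least 10 cells of a class, which leaves out the mural-like cells. The transit-amplifying-like class was led by mitotic genes (Nusap1, Top2a, Cenpf), and 68.7% of its cells had a UMI of the neuroblast marker Dcx. A pair of clusters stayed unnamed by the marker rule: 99 cells, called here the Mcm2 cluster, and 401 cells led by Pbx3, Prokr2, Robo2, Runx1t1 and Tshz1, called the Prokr2 and Foxp2 cluster. In the Prokr2 and Foxp2 cluster the 12 neuroblast markers summed to 13595 CPM (UMIs of the gene scaled to a fixed library total) and the neuron markers to 886 CPM, against 15242 and 618 CPM in neuroblast-like cells. Median depth differed between classes, at 1798 UMIs per cell in the Prokr2 and Foxp2 cluster, 2391 in neuroblast-like cells and 7208 in transit-amplifying-like cells.

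**Figure D1:**
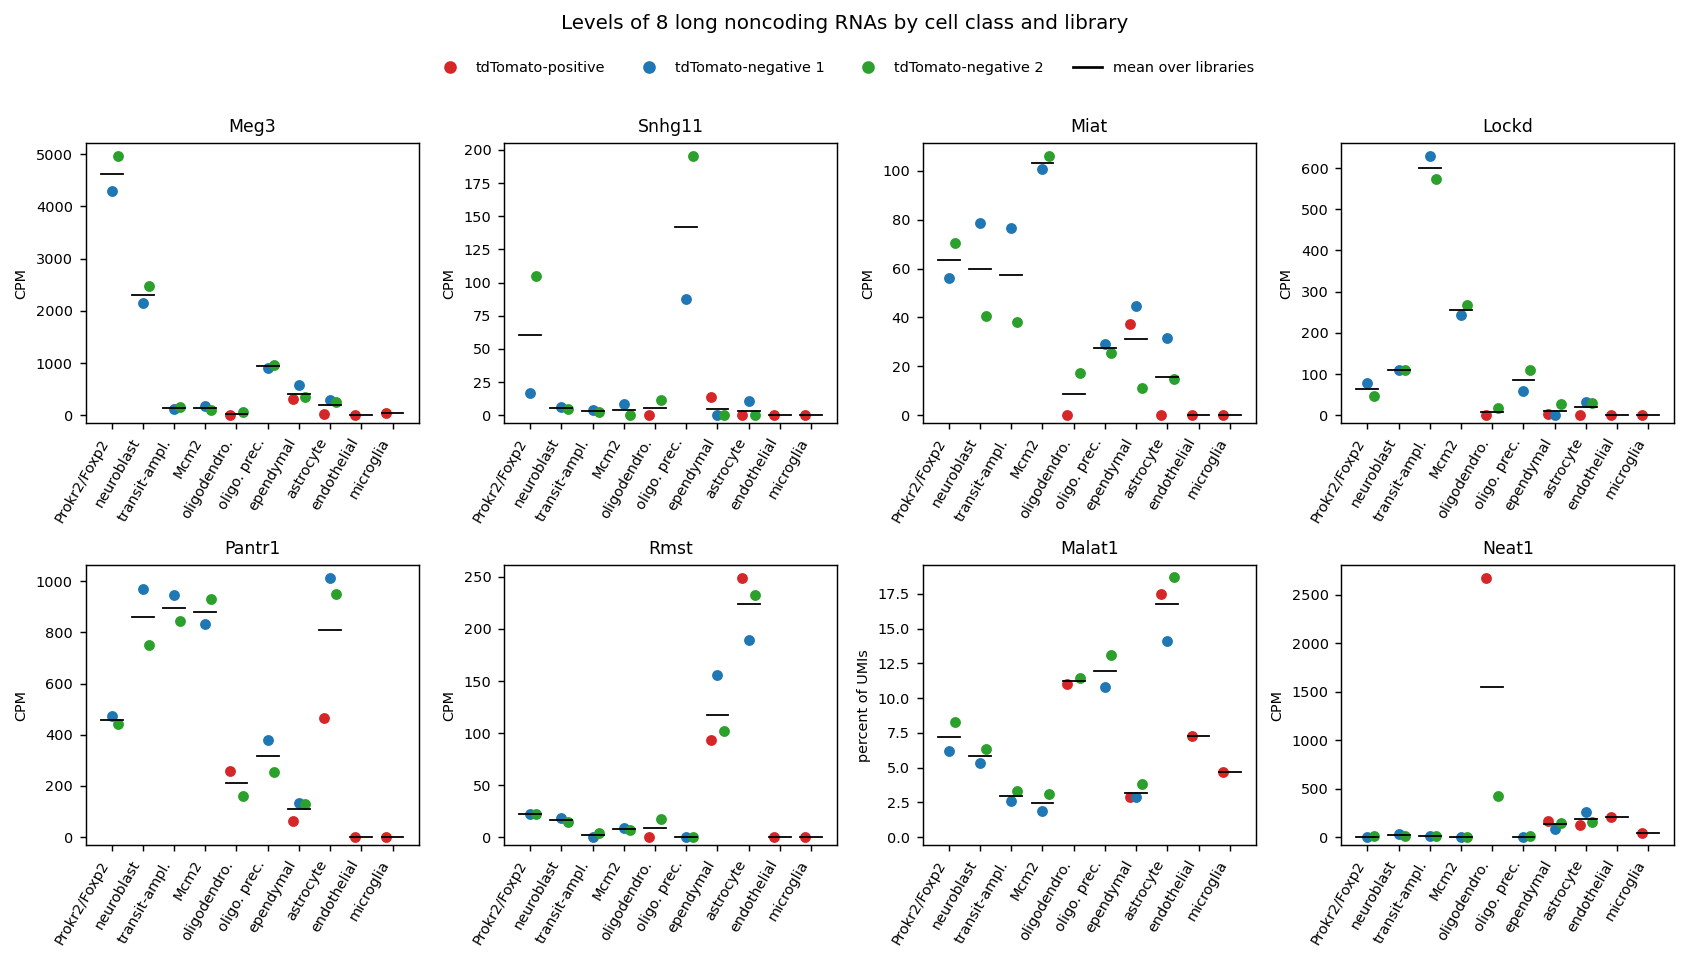
CPM of each long noncoding RNA (Malat1 as percent of UMIs) on the vertical axis by cell class on the horizontal axis, 1 point per library with at least 10 cells of the class and a bar at the mean. Meg3 was highest in the Prokr2 and Foxp2 cluster (4287 and 4964 CPM), Lockd in transit-amplifying-like cells (629 and 573 CPM), Rmst and Malat1 in astrocyte-like cells, and Neat1 in oligodendrocyte-like cells.

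Meg3 was highest in the neuronal classes. In the Prokr2 and Foxp2 cluster it stood at 4287 and 4964 CPM in tdTomato-negative libraries 1 and 2, and in neuroblast-like cells at 2141 and 2475 CPM. Oligodendrocyte precursor-like cells followed with 907 and 968 CPM. Ependymal-like cells had 308 CPM among tdTomato-positive cells, and 578 and 350 CPM in tdTomato-negative libraries 1 and 2, and astrocyte-like cells had 31.1 CPM (1 UMI), 285 and 260 CPM. Transit-amplifying-like cells had 117 and 155 CPM and the Mcm2 cluster 168 and 92.2 CPM. The libraries of each of the first 4 classes in this order lay apart from those of the next, while astrocyte-like cells, transit-amplifying-like cells and the Mcm2 cluster overlapped. Oligodendrocyte-like cells had 0 and 63.0 CPM among tdTomato-positive cells and in tdTomato-negative library 2, and no UMI was found in 20 endothelial-like cells, which allows up to 87.4 CPM. A UMI of Meg3 was found in 96.8% of cells of the Prokr2 and Foxp2 cluster, 79.8% of neuroblast-like cells and 53.7% of transit-amplifying-like cells. After thinning every cell to 1000 UMIs the shares were 93.4%, 69.1% and 11.6%, against 0 of 13 endothelial-like cells.

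Meg3 varied with depth among neuroblast-like cells. Cells of each library were ranked by UMIs and split into 3 near-equal groups. In tdTomato-negative library 2 the shallow group had 4812 CPM, the middle group 2567 and the deep group 1282, with median depths of 1698.5, 2344 and 3205 UMIs. Library 1 gave 4395, 2318 and 1157 CPM in the same order. In the Prokr2 and Foxp2 cluster the 3 groups of library 2 had 5975, 5168 and 4257 CPM, with median depths of 1360.5, 1729 and 2216.5 UMIs. Shallower cells held a larger share of Meg3 in both classes, and the part of depth in the Meg3 levels was not tested. Malat1 was also lower in deeper neuroblast-like cells of library 2, at 8.19%, 6.75% and 5.14% of UMIs.

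**Figure D2:**
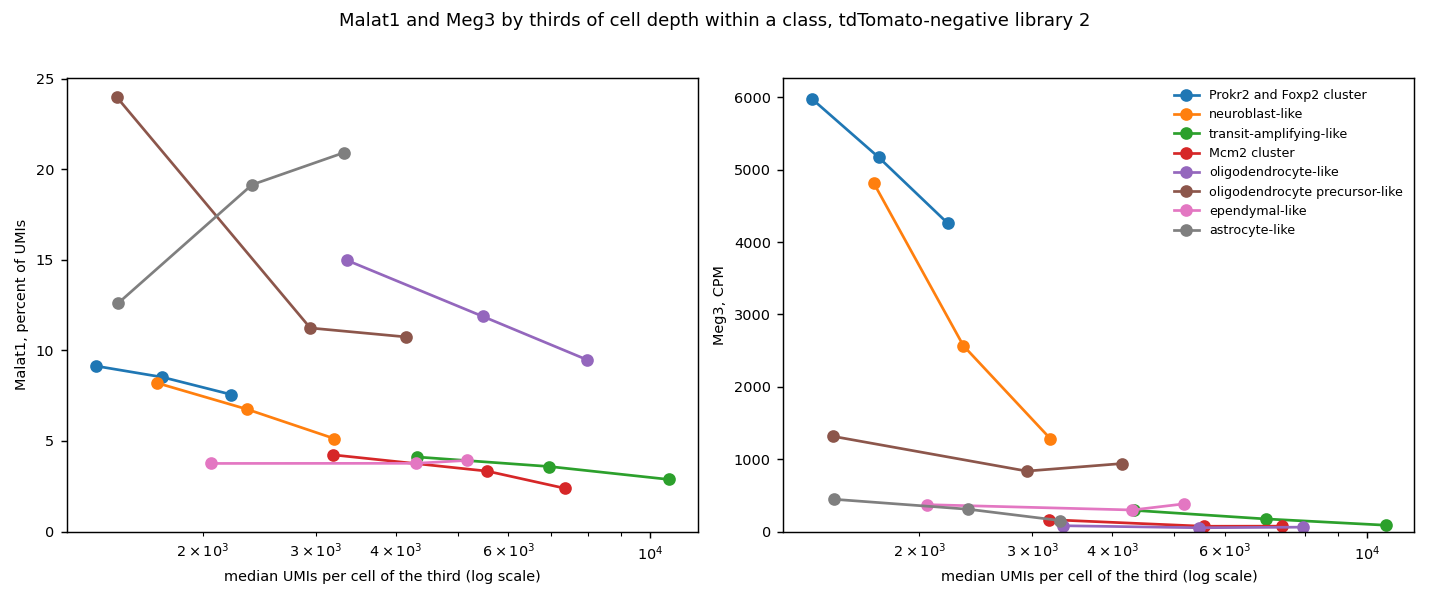
Malat1 as percent of UMIs (left) and Meg3 in CPM (right) in 3 depth groups of each class of tdTomato-negative library 2, with the median UMIs per cell of each group on a log horizontal axis. Meg3 in neuroblast-like cells was 4812, 2567 and 1282 CPM with rising depth, while Malat1 in astrocyte-like cells was 12.6%, 19.1% and 20.9%.

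Meg3 and Lockd gave the steepest opposite differences between neuroblast-like and transit-amplifying-like cells (4.09 and -2.38 on the log2 scale), and their promoters are shown for that reason. Both come from RefSeq (GRCm38.p6), 250 bases before to 50 after the start, plus strand, at chr12:109540746-109541045 for Meg3 and chr6:134928842-134929141 for Lockd. Capitals mark matches, on either strand, to the CCAAT box (CCAAT), the cyclic AMP response element (TGACGTCA), the TATA box (TATAAA) and an E2F motif (GGCGGGAA).
Meg3: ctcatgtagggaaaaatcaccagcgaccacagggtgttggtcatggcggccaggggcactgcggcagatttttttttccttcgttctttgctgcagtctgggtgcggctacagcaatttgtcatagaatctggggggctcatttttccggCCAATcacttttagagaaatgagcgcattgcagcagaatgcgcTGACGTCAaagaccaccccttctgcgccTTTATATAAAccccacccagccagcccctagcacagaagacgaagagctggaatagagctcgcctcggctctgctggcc
Lockd: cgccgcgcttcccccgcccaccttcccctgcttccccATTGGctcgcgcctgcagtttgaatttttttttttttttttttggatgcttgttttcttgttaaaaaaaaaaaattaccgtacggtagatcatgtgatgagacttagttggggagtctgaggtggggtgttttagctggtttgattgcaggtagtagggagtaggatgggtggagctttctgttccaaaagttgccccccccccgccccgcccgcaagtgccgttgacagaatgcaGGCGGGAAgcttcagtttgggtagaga
RefSeq gives Meg3 a second start, with a window at chr12:109545148-109545447 that held 0 matches. Counted from the start site, the printed Meg3 window held CCAAT at -100, TGACGTCA at -57 and overlapping TATA box matches at -29 (reverse strand) and -25. The Lockd window held the reverse complement of CCAAT at -213 and GGCGGGAA at 23, inside the transcript. Of 32851 promoter windows of the same length, 1.79% held TGACGTCA, 13.6% TATAAA, 37.4% CCAAT and 2.19% GGCGGGAA. Entries matched 5 of the 8 RNAs, the others being Snhg11, Miat and Malat1, and not Neat1, Rmst and Pantr1. These are letter matches only.

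Snhg11, a small nucleolar RNA host gene that is annotated as protein coding in GENCODE M21 and as a long noncoding RNA in RefSeq, was found in few cells. Oligodendrocyte precursor-like cells had 87.7 and 195 CPM in tdTomato-negative libraries 1 and 2, with a UMI in 20 of 52 cells. All other classes but the Prokr2 and Foxp2 cluster had at most 13.6 CPM in any library. The Prokr2 and Foxp2 cluster had 16.9 and 105 CPM, and 53 of its 64 UMIs came from 1 cell of library 2. That cell had 10569 UMIs against a class median of 1798 and UMIs of 8 of 12 neuron markers, among them 24 of Gad2, 21 of Snap25 and 17 of Syt1, with 114 Meg3 UMIs and 1 Dcx UMI. Without it, library 2 had 13.99 CPM of Snhg11 in that cluster, and no other cell held more than 2 UMIs. Thinned to 1000 UMIs, 21.6% of oligodendrocyte precursor-like cells and 1.53% of cells of the Prokr2 and Foxp2 cluster had a UMI, against 0.312% of neuroblast-like cells.

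Miat, a nuclear RNA known from neural progenitors and neurons, was low everywhere. Its highest level was in the Mcm2 cluster, at 101 and 106 CPM in tdTomato-negative libraries 1 and 2. The Prokr2 and Foxp2 cluster (56.3 and 70.4 CPM), neuroblast-like cells (78.6 and 40.7 CPM) and transit-amplifying-like cells (76.6 and 38.0 CPM) overlapped. Ependymal-like cells had 37.4 CPM among tdTomato-positive cells, and 44.5 and 11.3 CPM in tdTomato-negative libraries 1 and 2, and astrocyte-like cells had 0, 31.6 and 14.8 CPM. After thinning, no class had a UMI in more than 8.25% of cells, so expressing cells could not be told from others at this depth.

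Lockd lies 3578 bases downstream of Cdkn1b on the same strand of chromosome 6 and is known from mouse erythroid cells for a locus that acts as an enhancer of that gene, which encodes the cell cycle inhibitor p27. It was highest in the dividing cells, with 629 and 573 CPM in the transit-amplifying-like class of tdTomato-negative libraries 1 and 2. The Mcm2 cluster, with Mcm2, Pcna and Rpa2 of DNA replication among its leading genes, had 244 and 267 CPM, and neuroblast-like cells 109 and 110.0 CPM. In astrocyte-like cells it had 0, 31.6 and 29.5 CPM in the tdTomato-positive and then the tdTomato-negative libraries. The transit-amplifying-like class and the Mcm2 cluster lay above the other classes with no overlap. A Lockd UMI was found in 142 of 147 transit-amplifying-like cells and in 74 of 321 neuroblast-like cells, and after thinning in 44.9% and 10.0%, against 2.61% of astrocyte-like cells.

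Pantr1 is transcribed divergently from Pou3f3, which encodes a transcription factor of neural progenitors and neurons and whose gene lies 925 bases away on the opposite strand of chromosome 1. It was nearly level over the lineage, at 947 and 845 CPM in transit-amplifying-like cells, 832 and 929 CPM in the Mcm2 cluster and 968 and 752 CPM in neuroblast-like cells of tdTomato-negative libraries 1 and 2, and at 467, 1012 and 951 CPM in astrocyte-like cells of the tdTomato-positive and then tdTomato-negative libraries 1 and 2. These 4 classes overlapped. The Prokr2 and Foxp2 cluster had 473 and 443 CPM, below every one of them except the tdTomato-positive astrocyte-like cells. Ependymal-like cells had 64.6 CPM among tdTomato-positive cells, and 133 and 130 CPM in tdTomato-negative libraries 1 and 2. No UMI was found in endothelial-like or microglia-like cells, which allows up to 87.4 and 115 CPM.

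Rmst was highest in astrocyte-like and ependymal-like cells. Astrocyte-like cells had 249 CPM among tdTomato-positive cells, and 190 and 233 CPM in tdTomato-negative libraries 1 and 2. Ependymal-like cells had 93.5, 156 and 102 CPM in the same order, without overlap. The Prokr2 and Foxp2 cluster had 22.5 and 22.3 CPM, neuroblast-like cells 18.1 and 15.1 CPM, and transit-amplifying-like cells 0 and 4.47 CPM (4 UMIs in 147 cells). No UMI was found in 52 oligodendrocyte precursor-like cells, which allows up to 87.7 and 25.5 CPM. Thinned to 1000 UMIs, 17.5% of astrocyte-like and 11.1% of ependymal-like cells had a UMI, against 0 of 147 transit-amplifying-like cells.

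Malat1 took the largest share of UMIs in astrocyte-like cells, at 17.5% among tdTomato-positive cells, with 14.1% and 18.7% in tdTomato-negative libraries 1 and 2. Oligodendrocyte precursor-like cells had 10.8% and 13.1%, and oligodendrocyte-like cells 11.01% in the tdTomato-positive library and 11.4% in tdTomato-negative library 2. The Prokr2 and Foxp2 cluster had 6.21% and 8.25%, neuroblast-like cells 5.35% and 6.33%, transit-amplifying-like cells 2.57% and 3.34%, and the Mcm2 cluster 1.87% and 3.07% in tdTomato-negative libraries 1 and 2. Ependymal-like cells had 2.91% among tdTomato-positive cells, with 2.87% and 3.84% in tdTomato-negative libraries 1 and 2. Astrocyte-like cells lay above all other classes with at least 10 cells in a library, while the 8 mural-like cells had 15.3%, within the astrocyte-like range. The ependymal-like, transit-amplifying-like and Mcm2 cluster cells overlapped at the low end. Malat1 is retained in the nucleus, and what share of each library came from nuclei was not measured. In the left-out barcodes of the tdTomato-positive library, with a median of 30.4% mitochondrial UMIs, Malat1 was 1.87% of UMIs, against 4.30% in the kept cells.

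Within the astrocyte-like class the 2 joined clusters differed. The cluster led by Slc7a10 (204 cells) had 20.7% Malat1 among tdTomato-positive cells, with 17.01% and 22.1% in tdTomato-negative libraries 1 and 2. The cluster led by Gfap and Thbs4 (74 cells) had 3.78% and 7.81% in tdTomato-negative libraries 1 and 2. In library 2 the difference held in each depth group, at 17.4%, 25.4% and 21.8% against 5.69%, 6.85% and 9.49%. Meg3 ran the other way, at 135 and 114 CPM in the Slc7a10 cluster against 813 and 728 CPM in the Gfap cluster. Rmst stood at 216 and 264 CPM in the Slc7a10 cluster against 95.6 and 132 CPM in the Gfap cluster. These values describe 2 clusters and were not tested.

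Neat1 was highest in oligodendrocyte-like cells. The 14 such cells of the tdTomato-positive library had 2671 CPM (72 UMIs, found in 14 of 14 cells), and the 31 of tdTomato-negative library 2 had 424 CPM (74 UMIs, found in 20 of 31 cells), while 9 cells of tdTomato-negative library 1 had 355 CPM. The tdTomato-positive cells lay far above both other libraries. The summed precursor markers ran the other way, at 1224 CPM in the tdTomato-positive library against 7193 and 4315 CPM in tdTomato-negative libraries 1 and 2, and 4, 11 and 12 of 13 markers had a UMI. With clustering at resolution 0.5, Neat1 was 2671 CPM in 14 tdTomato-positive cells against 1109 and 624 CPM in 4 and 21 tdTomato-negative cells. RNA quality and depth moved with it too: these cells had a median of 13.52% mitochondrial UMIs and 1633.5 UMIs in the tdTomato-positive library, against 4.8% and 4217 in tdTomato-negative library 1 and 3.54% and 5295 in library 2. In the left-out barcodes of the tdTomato-positive library Neat1 was 485 CPM, against 260 CPM in the kept cells. The part of these in the result was not tested. The 20 endothelial-like cells had 204 CPM (7 UMIs) and the 8 mural-like cells 379 CPM (3 UMIs), all in the tdTomato-positive library. Astrocyte-like cells had 124, 263 and 161 CPM and ependymal-like cells 170.0, 89.0 and 147 CPM in tdTomato-positive and then tdTomato-negative libraries 1 and 2. The classes of the neuronal lineage stayed at or below 30.2 CPM, and oligodendrocyte precursor-like cells at 0 and 8.49 CPM.

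**Figure D3:**
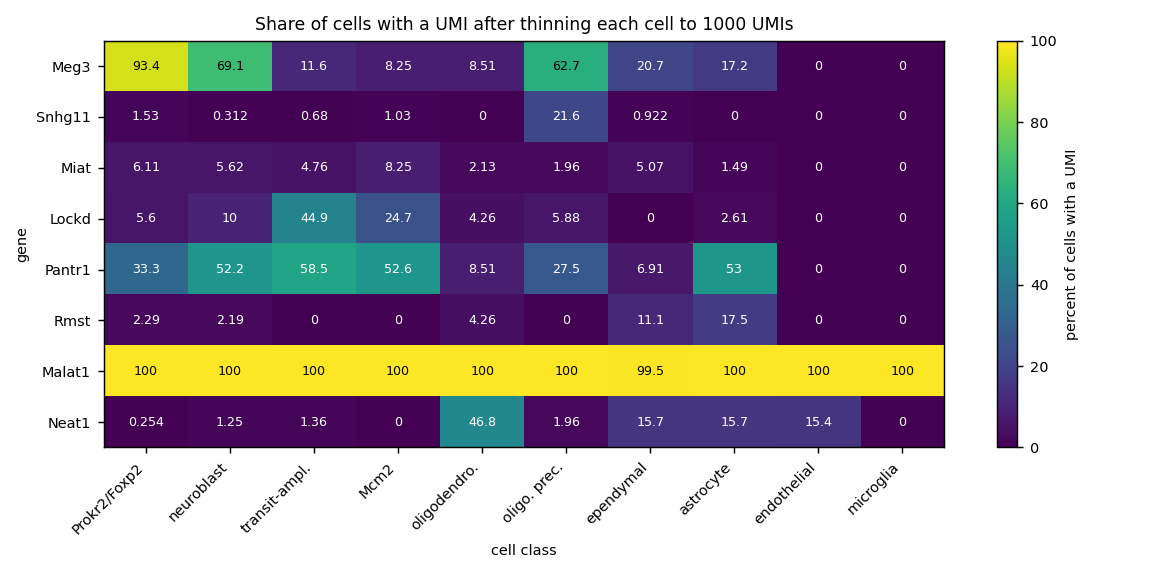
Percent of cells with a UMI of each RNA (rows) in each class (columns), libraries pooled, after thinning every cell to 1000 UMIs. Malat1 was found in 99.5% to 100% of cells of every class, Meg3 in 93.4% of cells of the Prokr2 and Foxp2 cluster and Lockd in 44.9% of transit-amplifying-like cells.

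The first comparison of the lineage set transit-amplifying-like cells against astrocyte-like cells. Lockd and Miat were higher in transit-amplifying-like cells, and Rmst, Neat1, Malat1 and Meg3 were lower. Most astrocyte-like cells (204 of 278) were of the Slc7a10 cluster, and the clusters were not tested apart. In tdTomato-negative libraries 1 and 2 Meg3 was 813 and 728 CPM in the Gfap cluster and 135 and 114 CPM in the Slc7a10 cluster. Transit-amplifying-like cells had 117 and 155 CPM. Malat1 was 3.78% and 7.81% in the Gfap cluster, against 17.01% and 22.1% in the Slc7a10 cluster. Miat in the Gfap cluster (47.8 and 46.5 CPM) overlapped transit-amplifying-like cells. Of the 8 RNAs 2 were called higher and 4 lower (edgeR quasi-likelihood test on summed UMIs, Benjamini-Hochberg adjusted p under 0.05), where 19.2% and 22.2% of the 4193 genes tested were called in those directions. Lockd rose by 4.10 ± 0.36 on the log2 scale (SE; adjusted p = 8.11e-28) and Rmst fell by 5.995 ± 0.506 (adjusted p = 2.13e-30). Neat1 fell by 3.65 ± 0.40 and Malat1 by 2.53 ± 0.33. Miat (log2 1.36 ± 0.53, adjusted p = 0.0278) and Meg3 (-0.95 ± 0.32, adjusted p = 0.00959) had smaller differences. Meg3 lost its call in the fit without Malat1 and mitochondrial genes (-0.53, adjusted p = 0.142), with DESeq2 (-1.08, adjusted p = 0.0502) and without the library block (-0.82, adjusted p = 0.112). Miat lost its call with the stricter cell filter (0.72, adjusted p = 0.173) and with DESeq2 (1.28, adjusted p = 0.133). Meg3 also lost it without tdTomato-negative library 1 (-0.59, adjusted p = 0.592) or 2 (-1.04, adjusted p = 0.262), and Miat without the tdTomato-positive library (1.15, adjusted p = 0.0514) or tdTomato-negative library 1 (1.42, adjusted p = 0.237). Pantr1 was called with RLE scaling (-0.40, adjusted p = 0.00933). Snhg11 had 3 UMIs against 1, a log2 ratio of 0.81 with an interval of -2.83 to 6.53, and Pantr1 had -0.21 ± 0.25 (adjusted p = 0.549). Whole-table scaling matters here: the median gene was at -0.07 with TMM, -0.18 with RLE, -0.25 with DESeq2 and 0.31 without Malat1 and mitochondrial genes.

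The next comparison set neuroblast-like cells against transit-amplifying-like cells. Meg3 was 17.1-fold higher in neuroblast-like cells, Malat1 2.04-fold higher, and Lockd was lower. Of the 8 RNAs 2 were called higher and 1 lower, where 6.87% and 6.89% of genes were called. Meg3 rose by 4.09 ± 0.31 (adjusted p = 3.51e-36), Malat1 by 1.03 ± 0.33 (adjusted p = 0.0153), and Lockd fell by 2.38 ± 0.28 (adjusted p = 7.46e-16). Rmst stood at 2.10 ± 0.80 (adjusted p = 0.0605, 13 against 4 UMIs), and Pantr1 (-0.04), Miat (0.11) and Neat1 (-0.09) lay near 0. Snhg11 had 4 UMIs against 3, a log2 ratio of 0.88 with an interval of -1.68 to 3.65. The Malat1 call was lost without the library block (adjusted p = 0.238) and without tdTomato-negative library 1 (0.97, adjusted p = 0.842), and Rmst was called in 5 alternatives. Cdkn1b, the neighbour of Lockd, was at 0.01 ± 0.28 here (adjusted p = 1), while it had risen by 1.55 ± 0.36 in transit-amplifying-like over astrocyte-like cells (adjusted p = 0.000104).

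The Prokr2 and Foxp2 cluster was then set against neuroblast-like cells. Meg3 was 2.08-fold higher in the cluster (log2 1.06 ± 0.26, adjusted p = 0.0221), and Snhg11 was 15.9-fold higher in the fit (3.99 ± 0.64, adjusted p = 8.93e-07), which rests on the single cell above. In tdTomato-negative library 2, depth groups of like depth gave unlike results. Meg3 was 5168 CPM in the middle group of the cluster (median 1729 UMIs). It was 4812 CPM in the shallow group of neuroblast-like cells (median 1698.5 UMIs). The deep group of the cluster (median 2216.5 UMIs) had 4257 CPM. The middle group of neuroblast-like cells (median 2344 UMIs) had 2567 CPM. The part of depth in the Meg3 difference was not tested. Of the 8 RNAs 2 were called higher and 0 lower, where 0.191% and 0.143% of genes were called. At an unadjusted p under 0.05, edgeR gave 2 RNAs higher and 2 lower and DESeq2 3 higher and 2 lower, and DESeq2 called none. Without the cell, which was chosen after seeing the data, Snhg11 was at 1.57 (adjusted p = 1). Meg3 lost its call with DESeq2 (1.05, adjusted p = 1), with the odd-numbered genes used for clustering (0.82, adjusted p = 0.106), without the block (1.06, adjusted p = 0.915) and without tdTomato-negative library 1 or 2 (adjusted p = 1 in both). Pantr1 was at -0.83 ± 0.27 (adjusted p = 0.266), lower in both libraries, 443 to 473 CPM against 752 to 968 CPM, and it was called in 4 alternatives. Lockd was at -0.92 ± 0.37 (adjusted p = 0.639), and Malat1 (0.35 ± 0.32), Miat (0.44 ± 0.40), Neat1 (-0.84 ± 0.83) and Rmst (0.55 ± 0.61) each had an adjusted p of 1. Pou3f3, the neighbour of Pantr1, was at -1.001 ± 0.321 (adjusted p = 0.266).

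Ependymal-like cells were set against astrocyte-like cells. Pantr1, Malat1 and Rmst were lower in ependymal-like cells and Meg3 was higher. The astrocyte-like class joins the Slc7a10 cluster (204 cells) and the Gfap cluster (74 cells), and ependymal-like cells were not tested against each. In tdTomato-negative libraries 1 and 2 the Gfap cluster had 813 and 728 CPM of Meg3, above every ependymal-like library. Its Rmst (95.6 and 132 CPM) and Malat1 (3.78% and 7.81%) overlapped the ependymal-like range. Its Pantr1 (956 and 1286 CPM) lay above that range. Of the 8 RNAs 1 was called higher and 3 lower, where 16.7% and 9.59% of genes were called. Pantr1 fell by 2.81 ± 0.31 (adjusted p = 6.01e-18), Malat1 by 2.28 ± 0.28 (adjusted p = 7.93e-15) and Rmst by 0.97 ± 0.34 (adjusted p = 0.0204), and Meg3 rose by 0.88 ± 0.31 (adjusted p = 0.0223). Meg3 lost its call with DESeq2 (1.04, adjusted p = 0.0579) and without the library block (0.71, adjusted p = 0.1504). With the stricter cell filter Meg3 (0.60, adjusted p = 0.0702) and Rmst (-0.90, adjusted p = 0.0673) lost their calls, and without the tdTomato-positive library Meg3 did (0.45, adjusted p = 0.217). Without tdTomato-negative library 1 both lost their calls (1.21 and -1.09, adjusted p = 0.175 and 0.200 for Meg3 and Rmst), and without library 2 Rmst did (-0.76, adjusted p = 0.533). Neat1 was at -0.63 ± 0.31 (adjusted p = 0.131) and was called with RLE scaling (-1.14, adjusted p = 0.000178). Miat (0.60 ± 0.72) and Lockd (-0.46 ± 0.76) were not called, and Snhg11 had 8 UMIs against 1, a log2 ratio of 2.72 with an interval of -0.18 to 8.19. Ependymal-like cells had a median of 8.61% mitochondrial UMIs, against 4.77% and 5.84% in the 2 astrocyte-like clusters, and its part in the result was not tested. Pou3f3 fell by 2.02 ± 0.39 (adjusted p = 2.69e-06), the same direction as Pantr1.

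Oligodendrocyte-like cells were set against astrocyte-like cells. Neat1 was higher in oligodendrocyte-like cells, and Rmst, Pantr1 and Meg3 were lower. Of the 8 RNAs 1 was called higher and 3 lower, where 7.46% and 8.80% of genes were called. Neat1 rose by 1.95 ± 0.30 (adjusted p = 1.65e-09), and it was higher in both oligodendrocyte-like libraries than in any astrocyte-like one. The size rests on the library: it was 1.09 (adjusted p = 0.0094) without the tdTomato-positive library and 3.31 (adjusted p = 0.000735) without tdTomato-negative library 2. Pantr1 fell by 2.31 ± 0.38 (adjusted p = 3.18e-08) and Meg3 by 2.27 ± 0.52 (adjusted p = 0.000233). Rmst had 3 UMIs against 152, a log2 ratio of -3.93 with an interval of -6.23 to -2.36. Without tdTomato-negative library 2 the calls of Meg3 (adjusted p = 0.334), Rmst (0.220) and Pantr1 (-1.14, adjusted p = 0.669) were lost. Miat had 3 UMIs against 11 and Lockd 3 against 19, with log2 ratios of -0.15 (interval -2.63 to 1.78) and -0.93 (interval -3.33 to 0.83), and Snhg11 had 2 UMIs against 1. Malat1 was at -0.81 ± 0.31 (adjusted p = 0.0523), with both oligodendrocyte-like libraries below the astrocyte-like ones, and it passed the threshold in 7 of 10 alternatives. Pou3f3 fell by 2.59 ± 0.54 (adjusted p = 2.75e-05), again with Pantr1.

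**Figure D4:**
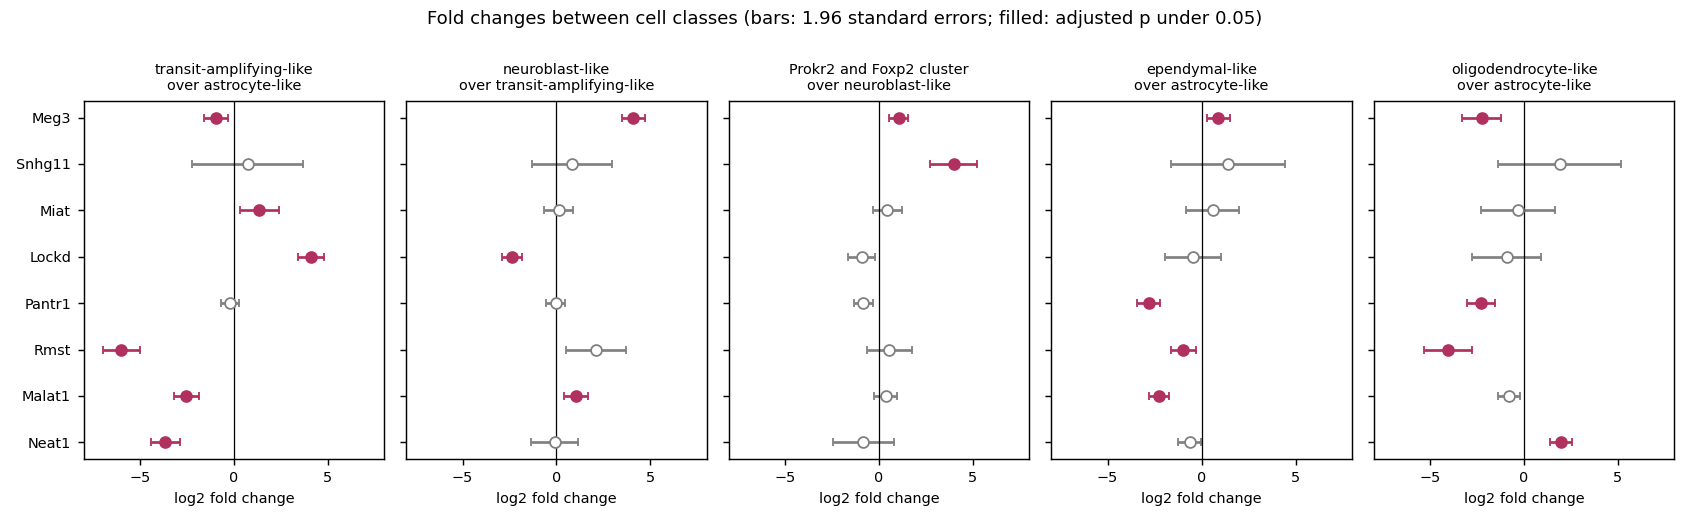
Log2 fold changes (horizontal axis) of the 8 RNAs in the 5 class comparisons, first class over second, with bars for the 95% interval and filled points where the adjusted p was under 0.05. Lockd was at 4.10 in transit-amplifying-like over astrocyte-like cells and at -2.38 in neuroblast-like over transit-amplifying-like cells, where Meg3 was at 4.09.

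Across all cells, the tdTomato-positive library was set against the tdTomato-negative libraries, 1 against 2. Neat1 and Rmst were higher and Lockd, Pantr1 and Meg3 lower in tdTomato-positive cells. Neat1 had 260 CPM in the tdTomato-positive library against 55.1 and 59.7 CPM in tdTomato-negative libraries 1 and 2, and Rmst 87.5 against 35.6 and 49.4 CPM. Lockd had 5.55 CPM against 242 and 214, Pantr1 87.5 against 751 and 701, and Meg3 315 against 1352 and 1406. Of the 8 RNAs 2 were called higher and 3 lower, where 22.9% and 19% of 10944 genes were called. The log2 changes were 2.21 ± 0.30, 1.02 ± 0.33 (adjusted p = 0.0074), -5.28 ± 0.55, -2.99 ± 0.39 and -2.08 ± 0.36 in the order named, with the lone library assumed to vary like the others. Malat1 (-0.58 ± 0.36), Miat (-0.63 ± 0.40) and Snhg11 (-0.85 ± 0.58) were not called (adjusted p = 0.191, 0.199 and 0.236). Of the 187 Neat1 UMIs of the tdTomato-positive library, 72 came from its 14 oligodendrocyte-like cells and 100 from its ependymal-like cells. The Rmst call was lost with DESeq2 (adjusted p = 0.238), with no count filter (0.90, adjusted p = 0.0653) and with the stricter cell filter (0.80, adjusted p = 0.0665), and Rmst was at 0.63, with no test, without tdTomato-negative library 1. The gates differ in cell makeup, 70.2% ependymal-like cells against 4.69% and 4.10%, and a change in the number of cells of a type cannot be told apart here from a change in RNA per cell.

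Within ependymal-like cells alone, the gates were set against each other with 177 cells in the tdTomato-positive library against 12 and 46. Malat1 was 2.91% against 2.87% and 3.84% of UMIs, and the log2 change was -0.09 ± 0.50 with an interval of -1.06 to 0.88. Of 8 RNAs 5 passed the filter on low counts and 0 were called, where 0.244% and 0.0977% of 2047 genes were called higher and lower. At an unadjusted p under 0.05, 0 RNAs were seen with edgeR and 0 with DESeq2. Pantr1 was at -0.92 ± 0.51, Meg3 at -0.34 ± 0.30, Neat1 at 0.44 ± 0.35 and Rmst at -0.22 ± 0.47 (each adjusted p = 1.00). Miat had 22 UMIs against 4 and was not tested. Snhg11 had 8 UMIs against 0 and was not tested. With 3 counts allowed over the tdTomato-negative cells the ratio was 1.01, before counting error in the 8 UMIs, so no difference was shown. Lockd had 2 UMIs against 5 over far fewer cells and was not tested. Its log2 ratio was -2.73, with an interval of -6.12 to -0.12 for counting error only. Those 5 UMIs came from 3 cells of tdTomato-negative library 2. The libraries overlapped, at 3.40 CPM against 0 and 28.2 CPM in tdTomato-negative libraries 1 and 2.

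Other genes were followed as 3 lists chosen with earlier results of these data known. The first held 36 nuclear proteins: mostly paraspeckle, speckle and splicing proteins, with the Polycomb proteins Ezh2, Suz12 and Jarid2, other chromatin proteins and the transcription factor Sox2. Of these 35 were tested between classes, and 24 were higher and 2 lower in transit-amplifying-like than astrocyte-like cells (median log2 1.28, against -0.07 over all genes), where 19.2% and 22.2% of all genes were called. Ezh2, the catalytic subunit of Polycomb repressive complex 2, rose by 4.13 ± 0.39 (adjusted p = 2.08e-24), the splicing factor Hnrnpa1 by 3.33 ± 0.31 and the paraspeckle protein Pspc1 by 2.75 ± 0.55. In neuroblast-like against transit-amplifying-like cells 2 were higher and 8 lower, where 6.87% and 6.89% of all genes were called. Celf3 (1.89 ± 0.39) and Jarid2 (1.13 ± 0.36) were higher there and Suz12 (-1.503 ± 0.449) was lower.

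In ependymal-like against astrocyte-like cells 2 of the nuclear proteins were higher and 2 lower, where 16.7% and 9.59% of all genes were called. Hnrnpf and Srsf3 rose by 1.496 ± 0.290 and 0.84 ± 0.31, and Son, a scaffold of speckles, fell by 1.21 ± 0.24. In oligodendrocyte-like against astrocyte-like cells 1 was higher and 3 lower, where 7.46% and 8.80% were called. Son fell by 1.14 ± 0.30 there, Sox2 was at -1.64 ± 0.44, and Cpsf7 had 0 UMIs against 20. Across all cells 0 were higher and 19 of 36 lower in the tdTomato-positive library with edgeR, where 22.9% and 19% of all genes were called. DESeq2 gave 0 and 13, and edgeR 0 and 21 at an unadjusted p. Ezh2 fell by 3.74 ± 0.46 and Hnrnpa1 by 3.11 ± 0.39, and Celf3 had 0 UMIs against 208.

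Of 60 other long noncoding RNAs, 28 matched a row and 14 were tested between classes. In transit-amplifying-like against astrocyte-like cells 6 were higher and 4 lower (median 0.35), beside 19.2% and 22.2% of all genes. Dlx6os1, transcribed from the Dlx5 and Dlx6 locus of interneuron progenitors, rose by 2.68 ± 0.37 there (360 against 26 UMIs), and Dlx1as had 76 UMIs against 2 and Mir124a-1hg 16 against 1. In neuroblast-like against transit-amplifying-like cells 6 were higher with edgeR and 0 lower, beside 6.87% and 6.89% of all genes (9 and 0 at an unadjusted p; DESeq2 called 1 and 0). Dlx6os1 rose by a further 1.81 ± 0.26 (846 against 360 UMIs), the imprinted antisense RNA Kcnq1ot1 by 1.22 ± 0.29 and Mir124a-1hg by 1.92 ± 0.49. In ependymal-like against astrocyte-like cells 1 was higher and 2 lower, beside 16.7% and 9.59%. Gm3764 fell by 5.24 ± 0.33 (25 against 1068 UMIs) and C130071C03Rik by 1.98 ± 0.52, while Kcnq1ot1 rose by 1.27 ± 0.34. In oligodendrocyte-like against astrocyte-like cells 1 was higher and 5 lower, beside 7.46% and 8.80%, with Gm3764 at -4.69 ± 0.42, C130071C03Rik at -2.40 ± 0.69 and Snhg9 at -2.22 ± 0.63. Between the gates over all cells 2 of 18 were higher and 9 lower, beside 22.9% and 19%. Dlx6os1 had 2 UMIs in the tdTomato-positive library against 2147 in the tdTomato-negative ones, Dlx1as 1 against 203 and Mir124a-1hg 1 against 147.

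The neighbouring genes of the 8 RNAs gave 12 tested members between classes. In transit-amplifying-like against astrocyte-like cells 1 was higher and 3 lower, near the 19.2% and 22.2% of all genes. Ltbp3 of the Malat1 and Neat1 region fell by 2.57 ± 0.73 and Tpst2, near Miat, by 2.11 ± 0.46, and Ppp1r16b of the Snhg11 region had 0 UMIs against 10. In ependymal-like against astrocyte-like cells 0 were higher and 2 lower, beside 16.7% and 9.59% (edgeR; 0 and 3 at an unadjusted p, DESeq2 0 and 2). These were Pou3f3 and Tpst2, which fell by 2.18 ± 0.60. In oligodendrocyte-like against astrocyte-like cells 3 were higher and 1 lower, beside 7.46% and 8.80%. Cdc42ep2 and Frmd8 of the Malat1 and Neat1 region had 28 UMIs against 0 and 37 against 6, with Frmd8 at 4.16 ± 0.62, and Ppp1r16b rose by 3.98 ± 0.53 (53 against 10 UMIs). Between the gates over all cells 3 of 18 neighbours were higher and 4 lower, beside 22.9% and 19%. Crybb1 near Miat rose by 3.13 ± 0.86 and Ltbp3 by 2.12 ± 0.41, and Fam83d near Snhg11 had 0 UMIs against 65.

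In the Prokr2 and Foxp2 cluster against neuroblast-like cells edgeR and DESeq2 called 0 genes of all 3 lists. At an unadjusted p under 0.05 edgeR gave 1 nuclear protein, 2 other long noncoding RNAs and 1 neighbour there. Among neighbours, neuroblast-like against transit-amplifying-like cells also gave 0 with both tools and 2 at an unadjusted p with edgeR. Within ependymal-like cells the gates gave 0 calls in the 3 lists with edgeR and DESeq2, with 0 nuclear proteins, 1 other long noncoding RNA and 1 neighbour at an unadjusted p with edgeR.

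The genes whose log2(CPM + 10) over the 20 library and class sums followed each RNA most closely, out of 4193, were named by Pearson r, as a description over sums that share libraries and depth. Lockd was followed by the histone gene Hist1h2ap (r = 0.950), Apitd1 and 2700094K13Rik. Pantr1 was followed by Chka (0.895), its neighbour Pou3f3 (0.894) and Negr1. Meg3 was followed by Gm9801 (0.900), 6330403K07Rik and Zfp799, Rmst by Acot11 (0.928), Slc15a2 and Phkg1, and Neat1 by the ferritin heavy chain gene Fth1 (0.892), Dnajb2 and Arap2. Malat1 was followed by Cadm2 (0.833), Pcyt2 and Luzp2, Miat by Bzw1 (0.909), Hnrnpk and Hmgb3, and Snhg11 by Neto1 (0.846), Pianp and Tceal6.

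In GENCODE M21 (GRCm38), Malat1 (chr19:5795690-5802672) and Neat1 (chr19:5824708-5845478) lie on the minus strand 22035 bases apart, yet Neat1 was highest in oligodendrocyte-like and Malat1 in astrocyte-like cells. Meg3 spans chr12:109541001-109571726, 77664 bases from Dlk1, and Lockd chr6:134929092-134956798. Rmst has another Ensembl ID in the matrices than in this annotation and was matched by name alone, so its position and overlap are those of the gene of that name. Under that name it spans chr10:92071037-92165170. Pantr1 spans chr1:42590782-42694842, Miat chr5:112213228-112229395 and Snhg11 chr2:158375638-158386145. Miat, Lockd, Rmst and Meg3 each overlap a gene on the opposite strand that also has its own row, Gm26953, Gm44238, Gm26700 and Gm26906. Whether strand was used in counting is not given in the sources used here. Whether reads from a gene and its antisense partner were kept apart was therefore not checked.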

How the data were processed

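Droplet single-cell libraries of adult mouse subventricular zone were used, 1 tdTomato-positive and 2 tdTomato-negative. The authors deposited UMI counts without normalization, 1 matrix a library. Tools named in the submitters' processing notes are STAR, Cell Ranger and, with its version, Seurat 1.4.0.15, and the builds GRCm38.p5 and mm10, with no role stated. Barcodes were kept from 300 genes up and to 25% mitochondrial UMIs, scaled to 10000, logged with a pseudocount of 1 and clustered together (1000 variable genes, 20 components, 15 neighbours, Leiden resolution 1.0, seed 1; scanpy 1.11.5, anndata 0.12.19, igraph 0.11.9, Python 3.11.15). Clustering drew on 14064 genes, those of even Ensembl number or among the 149 markers, without the 8 RNAs and the 3 lists of other genes. Tests between classes and within ependymal-like cells used other genes, the 8 RNAs and 3 lists (13934). The comparison of the gates over all cells used all genes, the clustering genes included. Tested genes can still vary with the clustering genes. Clusters were named where at least 3 markers of 1 of 13 lists were 2-fold higher, leading over 10 genes found in 25% of cells (20 CPM added). No doublets were removed beyond the sort gate.

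Cells are not replicates, so UMIs were summed per library and class with at least 10 cells and compared by edgeR 4.0.16 quasi-likelihood fits (R 4.3.3, limma 3.58.1; TMM, filterByExpr, Benjamini-Hochberg at 0.05), with library as a block for classes (20 sums, 8 residual degrees of freedom) since classes of 1 library are paired by construction. Standard errors are the log2 change over the square root of F, and they rest on a spread shared over genes. The gates had 3 sums and 1 residual degree of freedom. The tests were also tried on simulated counts with planted changes, 1 shared dispersion and no other class or library differences. That setting is simpler than these data, so it does not give their error rates. The tdTomato-positive library had 788344 UMIs and tdTomato-negative libraries 1 and 2 had 929997 and 3593633 (before filtering). A count of 0 allows 3 counts. Intervals of ratios at low counts are exact at 95%, conditional on the totals, and cover counting error only. Intervals of fitted log2 changes, also the bars of the fold change figure, are normal approximations at 95% from the standard errors above. Where a group had 1 to 3 UMIs, the ratio with its interval is given. Shares of cells were also computed after thinning to 1000 UMIs, which left out 41 tdTomato-positive cells and 12 and 6 of tdTomato-negative libraries 1 and 2.

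The 8 RNAs and the lists were chosen with earlier results of these data known. Genes named from a list were the up to 3 called genes with the largest absolute log2 change. Alternatives were RLE scaling, DESeq2 1.42.0, no filter, no Malat1 and mitochondrial genes, at least 500 genes and at most 10% mitochondrial UMIs, odd-number clustering genes, resolution 0.5, no replicate block, and each library left out.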

Additional observations from a re-analysis of the deposited data

Results flagged for a closer look

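For Neat1 and Lockd the difference between ependymal-like and astrocyte-like cells changed sign between the tdTomato-positive and both tdTomato-negative libraries. In tdTomato-negative library 2 it was small. For Neat1 the log2 ratio of CPM with 10 CPM added, ependymal-like over astrocyte-like, was 0.42 in the tdTomato-positive library, against -1.47 and -0.12 in tdTomato-negative libraries 1 and 2. For Lockd it was 0.42 in the tdTomato-positive library, against -2.06 and -0.05 in tdTomato-negative libraries 1 and 2. The difference was not tested. It rests on few UMIs: for Lockd 2 in ependymal-like and 0 in astrocyte-like tdTomato-positive cells, and for Neat1 4 in the 16 astrocyte-like tdTomato-positive cells. In tdTomato-negative library 1 Lockd had 0 UMIs in 12 ependymal-like cells, which allows up to 66.7 CPM, and 3 UMIs in astrocyte-like cells.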

How the results depend on the processing

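No called result reversed under the alternatives run. Of the values for single RNAs, 465 kept their side of the threshold, 22 passed it, 32 lost it and 5 untested values moved. Genes called in neuroblast-like against transit-amplifying-like cells numbered 577, 305 with DESeq2, 986 with the stricter cell filter and 999 at resolution 0.5, where 6 RNAs were called, against 3. In the Prokr2 and Foxp2 cluster against neuroblast-like cells 14 genes were called, 40 with RLE, 2 with DESeq2, 39 with the stricter filter and 3 with no replicate block; of the RNAs 2 were called, 0 with DESeq2, and 1 each with odd-digit clustering, with no block and without the Snhg11 cell, an alternative chosen after seeing the data. The stricter filter left 2 of 4 RNAs called in ependymal-like against astrocyte-like cells. DESeq2 called 431 genes, against 682, in oligodendrocyte-like against astrocyte-like cells and 1908, against 4579, between the gates. Within ependymal-like cells the gates gave 7 genes, 3 with RLE or no filter, 2 with odd-digit clustering, and 0 with DESeq2 or the stricter filter. Leaving out a library gave 410 to 1788 genes in transit-amplifying-like against astrocyte-like cells, 36 to 828 in neuroblast-like against transit-amplifying-like cells, 0 to 41 genes and 0 to 3 RNAs for the Prokr2 and Foxp2 cluster, 296 to 1034 genes and 2 to 3 RNAs for ependymal-like cells, and 48 to 684 genes and 2 to 4 RNAs for oligodendrocyte-like cells, the lowest gene counts without tdTomato-negative library 2. Causes were not tested. Resolution 0.5 gave no Prokr2 and Foxp2 cluster, and the gates cannot be compared without the tdTomato-positive library. No paired analysis was possible because the gates had 1 and 2 libraries. Snhg11 and Miat are limited by depth.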
